A study of Homo sapiens with 23 samples.

Results

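Axon guidance ligands and receptors were followed as 1 gene module in drug-resistant melanoma clones: the ephrins and their Eph receptors, the semaphorins of classes 3 to 7 with plexins and neuropilins, the netrins with the UNC5 receptors and DCC, and the Slits with the Robo receptors. Members were taken by a rule on symbols, set with earlier results of these data known, and 69 of the 35438 genes in the table matched. Of these, 35 were ligands and 34 receptors. A filter of at least 1 TPM (a transcript's level relative to its length and to the library's total) in at least 2 libraries left 52 members among 15657 tested genes. The cells were WM989 A6-G3, a human melanoma line that had been reduced to a single cell on 2 occasions, with its genotype labelled WT in every sample. Clones 7, 8 and 9 came from colonies that grew under vemurafenib, a BRAF inhibitor, and were cultured with 1 µM of it. Clones 10, 11, 12 and 13 came from colonies that grew under the BRAF inhibitor dabrafenib with the MEK inhibitor trametinib, and were cultured with 250 nM and 2.5 nM of them. Untreated cells of the same line, cultured without these drugs, were the comparison. There were 3 libraries for untreated cells and for each clone apart from clone 11, for which replicates 2 and 3 were analysed. Each clone is 1 expanded colony, resistance cannot be told apart from the drug in the medium, and the selecting drug cannot be told apart from the set of clones it gave.

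Axon guidance cues steer growing nerve fibres by binding receptors that rearrange the cytoskeleton through small GTPases. Ephrins stay on the cell surface and signal through Eph tyrosine kinases on the neighbouring cell, and semaphorins act through plexins, for most class 3 semaphorins with neuropilins as co-receptors. Netrins bind DCC and UNC5 receptors, and Slits bind Robo receptors. Melanocytes arise from the neural crest, whose migration uses several of these cues, and the same families take part in adhesion, invasion and vessel growth in tumours.

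All levels are scaled TPM, deposited TPM divided by a factor per library that ran from 0.747 in clone 8 replicate 3 to 1.15. All fold changes are differences of log2(scaled TPM + 1), which understate the change of low genes. Sequencing depth cannot be read from TPM and is unknown here, and the error given is the spread between libraries. Clone 10 replicate 1 stood apart with 14415 genes above 0, against 18671 to 24039 in the other libraries, and with 51 of the 69 members above 0, against 63 to 68. Markers of the labelled cell type were lower in the clones than in untreated cells. The 8 melanocyte markers summed to between 30.2 and 478 in clone libraries and between 12670 and 13150 in untreated libraries. All 8 were called lower. The 8 fibroblast markers summed to between 2173 and 7714 in clone libraries and between 59.7 and 69.0 in untreated libraries, with 7 called higher. Among them COL1A1 had the highest clone means, between 2010 and 6110 TPM (6.62 in untreated cells), while THY1 had at most 0.737 TPM in any library. The 6 endothelial markers summed to between 1.55 and 5.50 in clone libraries and between 1.43 and 1.69 in untreated libraries, with none called. Of the other lists, 1 of 7 neuronal and Schwann markers was called higher and 3 lower. Of 6 immune markers, 2 were called higher and 1 lower, and of 6 keratinocyte markers, 1 was called higher. Levels within these lists varied widely. The immune marker CD68 had clone means between 152 and 614 TPM (159 in untreated cells), while CD3E stayed under 0.1 TPM in every library. The keratinocyte marker KRT18 had clone means between 46.8 and 220 TPM (39.9 in untreated cells), while KRT5 stayed under 0.1 TPM. AXL, taken as a check of the resistant state, had clone means between 38.3 and 96.2 TPM (0.364 in untreated cells). EGFR, taken as another, had clone means between 6.42 and 16.8 TPM (0.506 in untreated cells). The shift of melanocyte and fibroblast markers accompanies every difference between clones and untreated cells given here, and its part in them was not tested. In bulk RNA, fewer cells of a type and less RNA per cell cannot be told apart.

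The clones held more of several guidance receptors, while ligands moved in both directions. NRP1, a co-receptor of class 3 semaphorins and of vascular endothelial growth factor, had the largest rise, and the netrin receptor UNC5B, the ligand EFNB1, the plexin PLXNB2 and the receptor tyrosine kinase EPHA2 also rose in every clone. SEMA6A, a transmembrane semaphorin, and ROBO2, a Slit receptor, had the largest falls. A member was called where limma gave a Benjamini-Hochberg adjusted p under 0.05 across all tested genes and a log2 fold change of 1 or more in size. With the 7 clones averaged, 14 of the 52 tested members (26.9%) were called higher, against 10.9% of all tested genes, and 7 (13.5%) were called lower, against 7.92%. The filter admits a gene that is high in 1 group alone, so these shares describe the tested members and not the whole module. Among receptors, 8 of 25 were higher and 1 lower, and among ligands 6 of 27 were higher and 6 lower. The median log2 fold change was 0.48 over tested members and -0.01 over all tested genes. With a pseudocount of 5 in place of 1, 8 members were called higher.

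**Figure D1:**
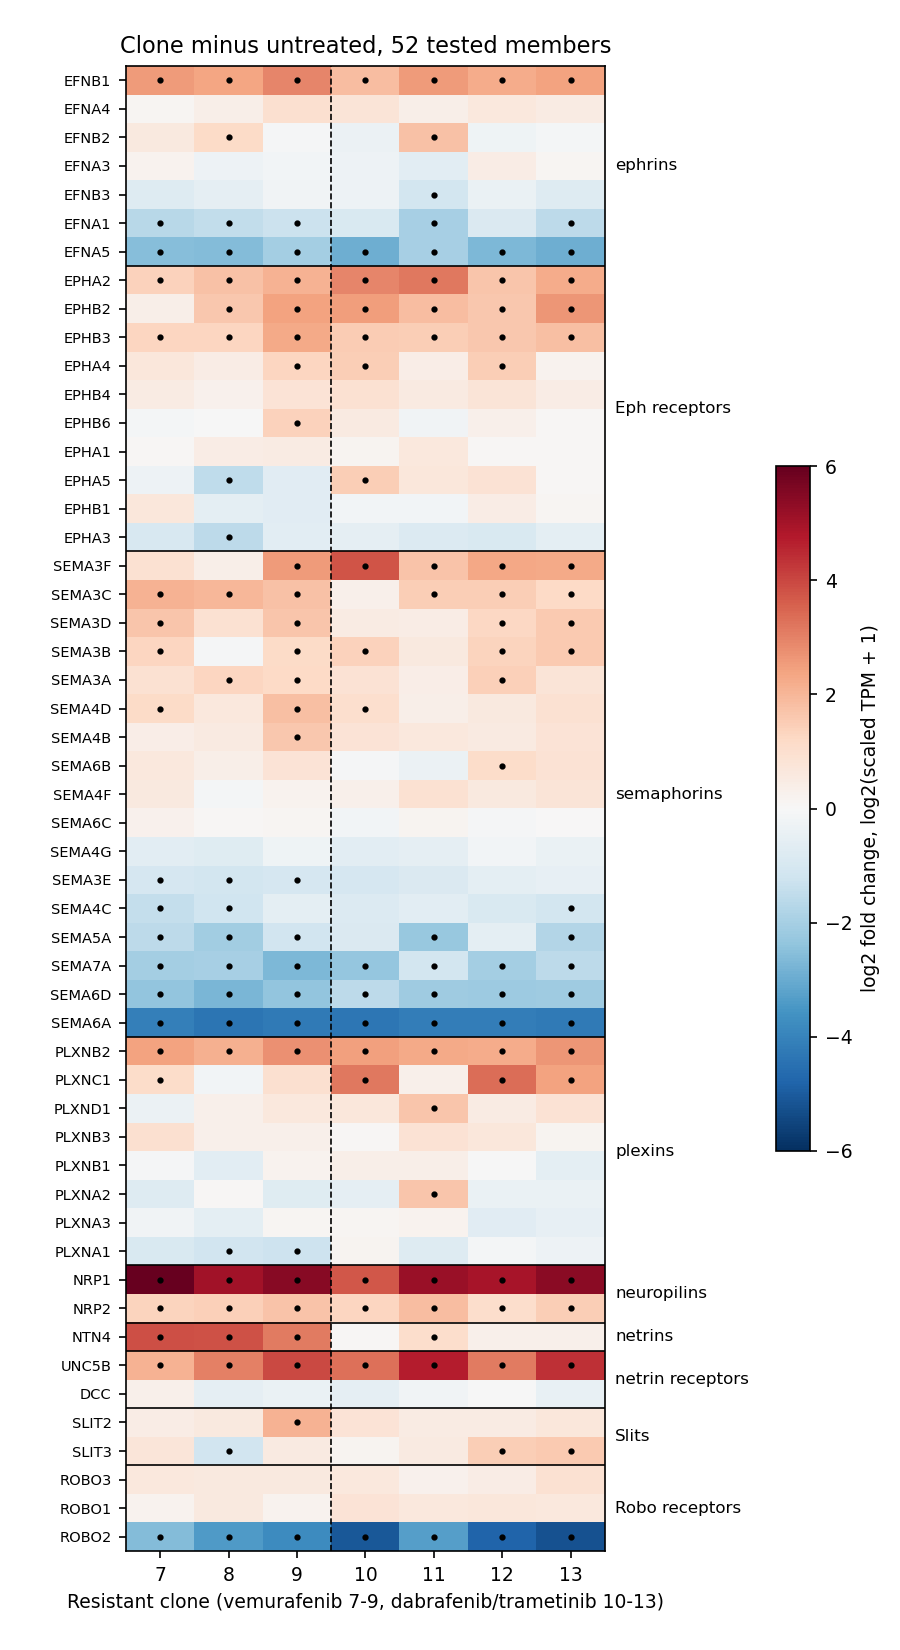
Log2 fold change of each of the 52 tested members (rows, grouped by family) in each resistant clone against untreated cells (columns), with red for higher and blue for lower in the clone and a dot where the change was called. NRP1, UNC5B, EFNB1 and PLXNB2 are red and dotted in all 7 columns, and SEMA6A and ROBO2 are blue and dotted in all 7.

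Called one clone at a time, 7 of the 52 tested members were higher in all 7 clones, against 4.87% of all tested genes. Lower in all 7 were 5 of 52, against 4.2%. Every count of members in this paragraph is out of 52. The 7 were NRP1, NRP2, UNC5B, EFNB1, PLXNB2, EPHA2 and EPHB3, which are receptors apart from EFNB1. The 5 were SEMA6A, ROBO2, EFNA5, SEMA6D and SEMA7A, which are ligands apart from ROBO2. At least 1 clone gave a call for 38 of the 52, a larger share than the 38% of all tested genes that had one. The other 14 members were called in no clone. All 20 clone libraries lay above all 3 untreated libraries for 15 of 52 members, against 14.5% of tested genes. They lay below them for 10 of 52, against 13.3%. The 7 contrasts share the untreated libraries, so a call in 7 clones is not 7 separate findings. Clone 9 had the most members called higher, 19 where 11.5% of genes were, and clone 8 the most called lower, 13 where 9.3% of genes were. Clone 7 had 13 members called higher (all genes 11.1%), clone 8 had 12 (11%), clone 10 had 14 (11.8%), clone 11 had 14 (11.5%), clone 12 had 17 (11.5%) and clone 13 had 14 (12.3%). Clone 7 had 9 called lower (all genes 8.49%), clone 9 had 9 (8.22%), clone 10 had 5 (10.6%), clone 11 had 8 (9.67%), clone 12 had 5 (8.02%) and clone 13 had 8 (8.34%).

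The promoters of the members were read from RefSeq windows on GRCh38.p14, each running from 250 bases before to 50 bases after the annotated start, and 59 of the 69 members had one. No window was found for NRP1, UNC5B or SEMA6A, which are among the members with the largest changes, so they were not searched. The median GC content of the member windows was 65.7%, against 58.3% over all 27305 windows. Motifs were searched by their letters on both strands as a description of these windows. TGANTCA, letters of the AP-1 site, was in 1 of 59 member windows (1.69%), against 7.76% of all windows. GGAATG, letters of the TEAD site, was in 5 of 59 (8.47%), against 14% of all windows. CACGTG, the E-box that MITF can bind, was in 4 of 59 (6.78%), against 7.43%. The windows of EPHA2, SEMA6D, PLXNC1 and NTN4 are printed with these members below, because each is a member that the results turn on and holds letters of 1 of the 3 motifs, with no second motif of the 3 in the window.

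Among the ephrins, EFNB1 rose and EFNA5 and EFNA1 fell, out of 7 tested of 8. EFNB1, a transmembrane ligand of EPHB receptors, read 27.9, 24.6 and 21.6 TPM in the libraries of clone 7, 22.8, 23.0 and 20.1 in those of clone 8, and 33.9, 30.5 and 33.9 in those of clone 9. It read 12.7, 14.2 and 18.6 TPM in the libraries of clone 10, 25.1 and 25.5 in those of clone 11, 16.8, 17.3 and 24.9 in those of clone 12, and 24.4, 20.6 and 23.8 in those of clone 13, against 3.29, 3.39 and 3.56 TPM in untreated cells. Every clone library exceeded every untreated library, and the log2 fold change was 2.42 (SE 0.11, adjusted p = 5.57e-13). EFNA5, a ligand anchored to the membrane by a lipid, read 1.33, 0.547 and 0.758 TPM in the libraries of clone 7, 0.822, 0.973 and 0.596 in those of clone 8, and 1.90, 1.64 and 1.42 in those of clone 9. In the other arm it read 0.796, 0.0846 and 0.472 TPM in the libraries of clone 10, 1.55 and 1.94 in those of clone 11, 1.25, 0.541 and 0.406 in those of clone 12, and 0.639, 0.533 and 0.222 in those of clone 13, against 9.52, 10.9 and 9.64 TPM in untreated cells. No clone library came near the untreated ones, and the log2 fold change was -2.55 (SE 0.15, adjusted p = 3.98e-11). EFNA1, the ligand best known to bind EPHA2, averaged between 1.43 and 4.67 TPM in the clones and 8.61 ± 0.19 TPM in untreated cells (SD, n = 3), a log2 difference of -1.40 (SE 0.24, adjusted p = 6.84e-05), and was called lower in 5 clones. Its highest clone library, 8.04 TPM, was clone 10 replicate 1, the library with few genes above 0, and the lowest untreated library held 8.39 TPM. EFNB2, a ligand of EPHB4, was called higher in clones 8 and 11 alone. It averaged 1.83 ± 0.44 TPM in clone 8 and 3.42 ± 0.56 TPM in clone 11 (SD, n = 3 and 2), against 0.286 ± 0.061 TPM in untreated cells (SD, n = 3). EFNB3 was called lower in clone 11 alone, and EFNA3 and EFNA4 were called in no clone.

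Among the Eph receptors, EPHA2, EPHB2 and EPHB3 rose and none fell, out of 10 tested of 14. EPHA2, a receptor tyrosine kinase for A ephrins, read 5.04, 5.25 and 5.40 TPM in the libraries of clone 7, 8.95, 8.52 and 4.86 in those of clone 8, and 9.72, 8.38 and 9.497 in those of clone 9. With dabrafenib and trametinib it read 18.8, 12.9 and 20.5 TPM in the libraries of clone 10, 20.7 and 20.4 in those of clone 11, 4.56, 6.47 and 9.77 in those of clone 12, and 6.21, 11.2 and 14.8 in those of clone 13, against 1.42, 1.40 and 1.40 TPM in untreated cells. Each clone library held at least 4.56 TPM and no untreated library above 1.42 TPM, and the log2 fold change was 2.17 (SE 0.20, adjusted p = 1.8e-08). Its promoter window on the minus strand of chr1:16156020-16156319 is printed here with CATTCC, the reverse complement of the TEAD letters, in capitals from 73 bases before the start.
EPHA2: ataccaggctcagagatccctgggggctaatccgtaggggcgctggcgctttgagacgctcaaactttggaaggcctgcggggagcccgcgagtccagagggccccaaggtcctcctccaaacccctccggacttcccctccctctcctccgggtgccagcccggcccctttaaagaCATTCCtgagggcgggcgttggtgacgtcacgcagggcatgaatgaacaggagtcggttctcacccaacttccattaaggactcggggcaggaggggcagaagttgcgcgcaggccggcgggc
EPHB2, a receptor for B ephrins, was close to 0 in untreated cells. It read 0.354, 0.341 and 0.302 TPM in the libraries of clone 7, 2.22, 2.22 and 2.10 in those of clone 8, and 4.74, 4.48 and 4.39 in those of clone 9. In the dabrafenib/trametinib clones it read 3.78, 4.67 and 6.39 TPM in the libraries of clone 10, 1.83 and 3.92 in those of clone 11, 2.12, 1.95 and 2.69 in those of clone 12, and 3.38, 5.32 and 9.33 in those of clone 13, against 0.0477, 0.0270 and 0.0630 TPM in untreated cells. Clone 7 was the low clone, and its fold change of 0.35 was not called (SE 0.24, adjusted p = 0.247), while the mean of the clones gave 1.85 (SE 0.18, adjusted p = 4.45e-08). EPHB3, also a receptor for B ephrins, averaged between 3.61 and 8.15 TPM in the clones and 0.897 ± 0.143 TPM in untreated cells (SD, n = 3), a log2 difference of 1.61 (SE 0.16, adjusted p = 6.32e-08). EPHB4 was the most abundant Eph receptor in untreated cells and was called in no clone. It read 33.1, 33.5 and 32.8 TPM in the libraries of clone 7, 33.1, 29.3 and 24.0 in those of clone 8, and 44.6, 38.4 and 41.4 in those of clone 9. In the other arm its values were 49.1, 44.5 and 41.4 TPM in the libraries of clone 10, 31.1 and 37.2 in those of clone 11, 37.3, 42.0 and 41.1 in those of clone 12, and 33.0, 31.4 and 33.4 in those of clone 13, against 22.0, 23.5 and 24.5 TPM in untreated cells. Its log2 fold change of 0.60 lay under the fold minimum (SE 0.08, adjusted p = 3.89e-06), and clone 8 replicate 3 lay inside the untreated range.

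EPHA5, a receptor for A ephrins, went opposite ways in different clones. It read 2.54, 1.69 and 1.97 TPM in the libraries of clone 7, 0.363, 0.381 and 0.166 in those of clone 8, and 1.53, 0.836 and 1.64 in those of clone 9. The dabrafenib/trametinib clones held 7.13, 11.2 and 10.1 TPM in the libraries of clone 10, 4.70 and 5.30 in those of clone 11, 5.38, 6.19 and 5.76 in those of clone 12, and 2.31, 3.37 and 3.01 in those of clone 13, against 1.96, 3.00 and 3.35 TPM in untreated cells. All 3 clone 10 libraries stood above the untreated ones and all 3 clone 8 libraries below them. The log2 fold change was 1.47 in clone 10 (SE 0.19, adjusted p = 1.93e-06) and -1.52 in clone 8 (SE 0.19, adjusted p = 1.46e-06). The mean over clones, 0.08, was not called (adjusted p = 0.64) and turned to -0.08 without untreated replicate 1 and to -0.07 with a pseudocount of 0.1. EPHA4 was called higher in clones 9, 10 and 12, EPHB6 higher in clone 9 and EPHA3 lower in clone 8. EPHA1 and EPHB1 were called in no clone.

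Among the semaphorins, 4 secreted members of class 3 rose and 4 members of classes 5, 6 and 7 fell, out of 17 tested of 20. SEMA6A, a transmembrane ligand of A plexins, read 0.954, 0.563 and 0.766 TPM in the libraries of clone 7, 0.492, 0.456 and 0.380 in those of clone 8, and 0.520, 0.651 and 0.601 in those of clone 9. It read 0.529, 0.466 and 0.461 TPM in the libraries of clone 10, 0.596 and 0.862 in those of clone 11, 0.302, 0.722 and 1.14 in those of clone 12, and 0.739, 0.463 and 0.559 in those of clone 13, against 26.8, 30.7 and 30.6 TPM in untreated cells. On the log2 scale the clone means ranged over 0.28 and the F test gave an adjusted p of 0.525. The clone means, 0.443 to 0.761 TPM, lay under the pseudocount of 1, which shrinks differences at such low levels. Against untreated cells the log2 fold change was -4.24 (SE 0.11, adjusted p = 1.85e-16). SEMA6D, another transmembrane class 6 member that binds PLXNA1, read 1.70, 1.06 and 1.53 TPM in the libraries of clone 7, 1.07, 1.12 and 0.549 in those of clone 8, and 1.55, 0.932 and 2.01 in those of clone 9. Its values were 4.88, 3.55 and 2.00 TPM in the libraries of clone 10, 2.29 and 1.54 in those of clone 11, 2.13, 2.13 and 1.18 in those of clone 12, and 1.69, 2.65 and 1.37 in those of clone 13, against 9.36, 12.3 and 13.5 TPM in untreated cells. Clone 10 held the most among the clones and still stood below untreated cells, and the log2 fold change was -2.21 (SE 0.19, adjusted p = 6.15e-09). Its window on the plus strand of chr15:47183839-47184138 carries the E-box letters, in capitals, from 28 bases before the start.
SEMA6D: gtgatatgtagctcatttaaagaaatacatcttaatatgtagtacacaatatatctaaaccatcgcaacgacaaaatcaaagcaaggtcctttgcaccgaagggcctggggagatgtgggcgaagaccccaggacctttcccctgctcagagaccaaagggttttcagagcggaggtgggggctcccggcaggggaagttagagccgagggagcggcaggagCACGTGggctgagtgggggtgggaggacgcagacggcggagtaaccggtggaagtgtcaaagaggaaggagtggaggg
SEMA6A made up between 2.85% and 11.4% of the summed class 6 level in the clone libraries, with a median of 6.35%, against 63.7% ± 1.24 in untreated cells (SD, n = 3). SEMA7A, a membrane-anchored semaphorin that binds PLXNC1, averaged between 1.82 and 7.60 TPM in the clones and 17.3 ± 0.60 TPM in untreated cells (SD, n = 3), a log2 difference of -1.96 (SE 0.20, adjusted p = 1.05e-07). SEMA5A, a transmembrane semaphorin with thrombospondin repeats, averaged between 4.76 and 17.3 TPM in the clones and 26.4 ± 1.28 TPM in untreated cells (SD, n = 3), a log2 difference of -1.47 (SE 0.10, adjusted p = 3.4e-10), and was called lower in 5 clones.

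The class 3 semaphorins that rose were SEMA3F, SEMA3C, SEMA3D and SEMA3B, out of 6 tested of 7, and each was called in some clones and not in others. SEMA3F, a secreted ligand of NRP2, read 1.33, 0.963 and 1.09 TPM in the libraries of clone 7, 0.484, 0.560 and 0.317 in those of clone 8, and 5.93, 5.27 and 5.72 in those of clone 9. It held 18.1, 13.9 and 12.0 TPM in the libraries of clone 10, 2.89 and 2.49 in those of clone 11, 2.94, 4.54 and 7.33 in those of clone 12, and 3.10, 4.30 and 6.28 in those of clone 13, against 0.0623, 0.184 and 0.125 TPM in untreated cells. Clone 10 was the highest and clone 8 the lowest, yet every clone library exceeded every untreated one. The log2 fold change was 1.99 (SE 0.17, adjusted p = 6.65e-09), with calls in clones 9 to 13. SEMA3C, a secreted ligand of both neuropilins, had the highest median of the semaphorins over the 20 clone libraries, 68.4 TPM (lowest 23.4, highest 128), against 20.0, 24.2 and 27.6 TPM in untreated cells. Its log2 fold change was 1.47 (SE 0.18, adjusted p = 1.09e-06), and clone 10 was the 1 clone without a call. SEMA3D rose by 1.15 (SE 0.22, adjusted p = 0.000229) and SEMA3B by 1.03 (SE 0.13, adjusted p = 1.63e-06). SEMA3A, a chemorepellent that acts through NRP1, had a fold change of 0.98, short of the minimum (SE 0.17, adjusted p = 6.84e-05), and was called higher in clones 8, 9 and 12. SEMA3E, the ligand of PLXND1, was called lower in clones 7, 8 and 9, with log2 fold changes of -1.003, -1.112 and -1.005. Clone 10, at -0.988 (adjusted p = 0.000361), fell just short of the fold minimum. The F test among clones gave an adjusted p of 0.0761. No class 4 member was called for the mean of the clones: SEMA4D was called higher in clones 7, 9 and 10, SEMA4B higher in clone 9 and SEMA4C lower in clones 7, 8 and 13. SEMA6B was called higher in clone 12, and SEMA4F, SEMA4G and SEMA6C in no clone.

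The neuropilins both rose in all 7 clones. NRP1 read 125, 111 and 108 TPM in the libraries of clone 7, 64.7, 63.4 and 51.4 in those of clone 8, and 77.9, 74.3 and 82.2 in those of clone 9. The dabrafenib/trametinib clones held 32.5, 20.2 and 19.2 TPM in the libraries of clone 10, 69.2 and 59.3 in those of clone 11, 66.3, 53.3 and 47.1 in those of clone 12, and 70.7, 95.96 and 64.3 in those of clone 13, against 0.780, 0.826 and 0.840 TPM in untreated cells. The lowest clone library, in clone 10, was at 19.2 TPM, and no untreated library exceeded 0.840 TPM. The log2 fold change was 5.11 (SE 0.13, adjusted p = 1.13e-16). Clone 10 was called lower than each of the other 6 clones, with a log2 difference of -1.21 to the nearest, clone 12 (largest adjusted p of the 6 pairs = 0.000267). NRP2, a receptor for SEMA3F and SEMA3C, was already present in untreated cells. It averaged between 66.8 and 118 TPM in the clones and 32.3 ± 5.69 TPM in untreated cells (SD, n = 3), a log2 difference of 1.45 (SE 0.15, adjusted p = 1.14e-07). The ratio of NRP1 to NRP2 was between 0.185 and 1.54 in the clone libraries, with a median of 0.735, and 0.0257 ± 0.0038 in untreated cells (SD, n = 3).

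**Figure D2:**
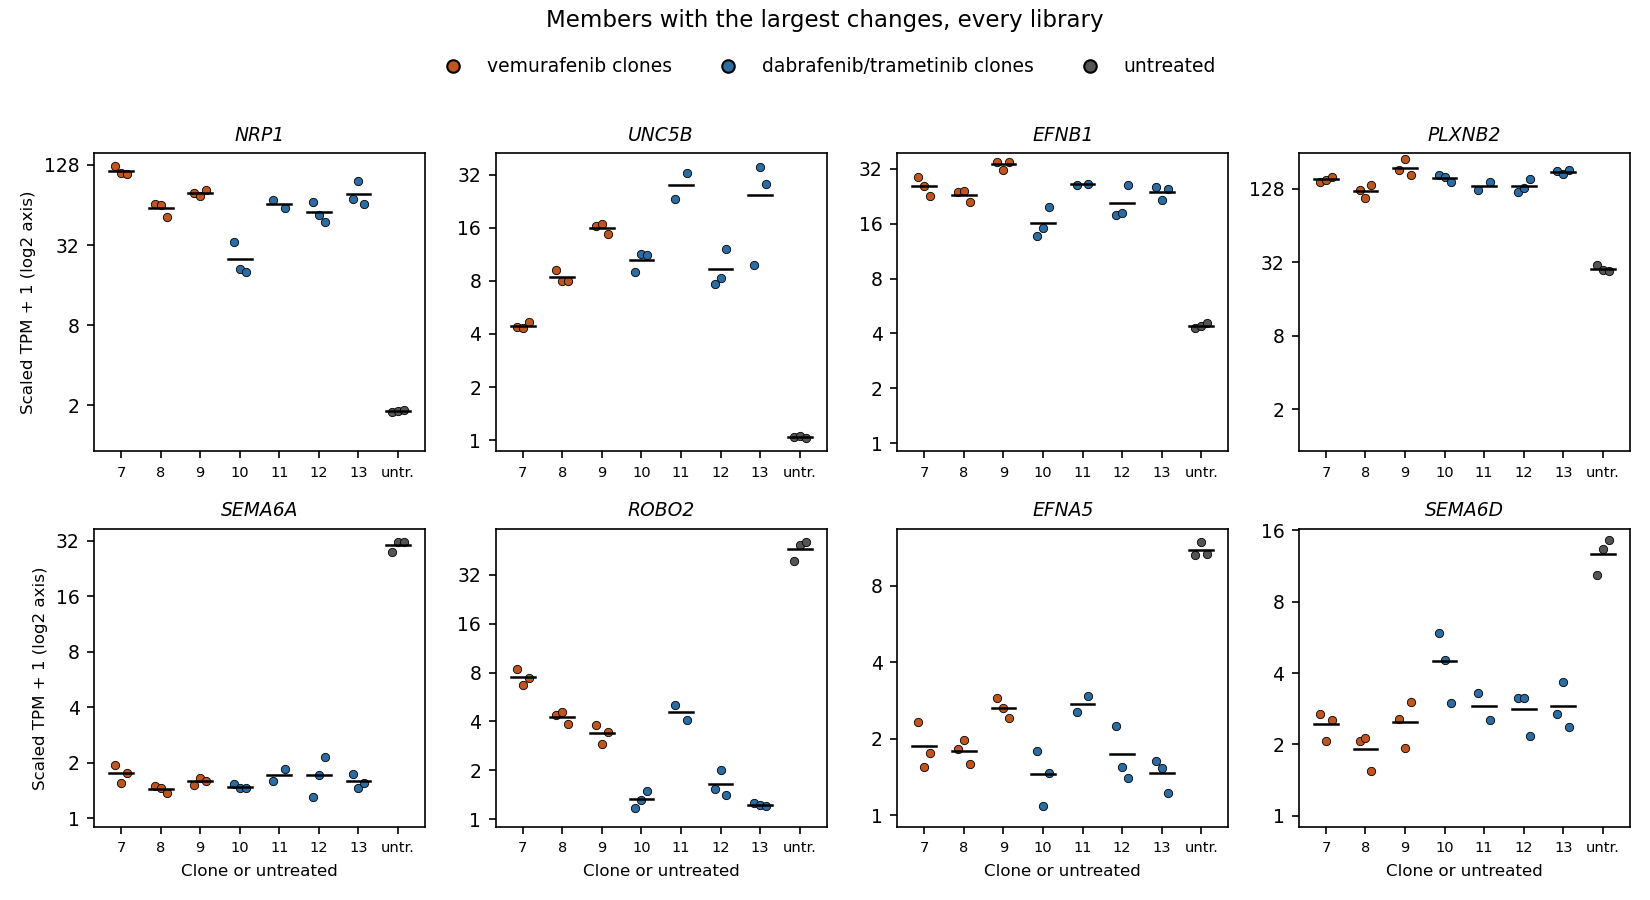
Scaled TPM + 1 (log2 axis) of 8 of the members with the largest changes, with 1 point per library, a line at the group mean, the clones in order and untreated cells (untr.) at the right. The points of NRP1, UNC5B, EFNB1 and PLXNB2 lie above the untreated points in every clone, and those of SEMA6A, ROBO2, EFNA5 and SEMA6D lie below them in every clone.

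Among the plexins, PLXNB2 and PLXNC1 rose and none fell, out of 8 tested of 9. PLXNB2, a receptor for class 4 semaphorins, read 145, 151 and 160.4 TPM in the libraries of clone 7, 124, 107 and 137 in those of clone 8, and 182, 224 and 167 in those of clone 9. It read 165, 160.3 and 144 TPM in the libraries of clone 10, 125 and 145 in those of clone 11, 120.3, 129 and 154 in those of clone 12, and 177, 170.0 and 181 in those of clone 13, against 29.2, 26.6 and 26.3 TPM in untreated cells. The clone means ranged over 0.63 on the log2 scale, under the minimum for a difference among clones, and the log2 fold change against untreated cells was 2.42 (SE 0.09, adjusted p = 2.74e-14). PLXNB3, the most abundant member that was called in no clone, read 109.7, 123 and 126 TPM in the libraries of clone 7, 76.5, 59.3 and 94.6 in those of clone 8, and 72.2, 98.9 and 60.3 in those of clone 9. Its other clone values were 76.2, 72.8 and 47.7 TPM in the libraries of clone 10, 109.7 and 113 in those of clone 11, 111, 99.7 and 91.2 in those of clone 12, and 78.9, 63.5 and 64.5 in those of clone 13, against 71.3, 58.7 and 55.0 TPM in untreated cells. The groups overlapped, and the log2 fold change of 0.47 was under the minimum (SE 0.15, adjusted p = 0.0101).

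PLXNC1, the receptor of SEMA7A, differed between clones by more than it differed between their mean and untreated cells. It read 11.6, 8.82 and 11.0 TPM in the libraries of clone 7, 4.77, 4.04 and 2.82 in those of clone 8, and 10.7, 7.09 and 11.2 in those of clone 9. The dabrafenib/trametinib clones held 70.9, 84.3 and 18.3 TPM in the libraries of clone 10, 8.05 and 3.78 in those of clone 11, 55.6, 69.3 and 39.3 in those of clone 12, and 19.6, 34.9 and 30 in those of clone 13, against 3.66, 4.81 and 4.78 TPM in untreated cells. All libraries of clones 10, 12 and 13 stood above all others, those of clone 8 lay in or near the untreated range, and the 3 clone 10 libraries differed widely from each other. The log2 fold change was 3.33 in clone 12 (SE 0.40, adjusted p = 1.28e-06), 3.19 in clone 10 (SE 0.40, adjusted p = 2.04e-06), 2.40 in clone 13 (SE 0.40, adjusted p = 6.4e-05), 1.08 in clone 7 (SE 0.40, adjusted p = 0.0341) and -0.16 in clone 8 (SE 0.40, adjusted p = 0.768). For the mean of the clones it was 1.58 (SE 0.31, adjusted p = 0.000215). That call did not hold when the libraries of a clone were treated as correlated, which gave 1.61 (adjusted p = 0.216). The PLXNC1 window on the plus strand of chr12:94262369-94262668 is the single member window with the AP-1 letters, in capitals from 91 bases before the start.
PLXNC1: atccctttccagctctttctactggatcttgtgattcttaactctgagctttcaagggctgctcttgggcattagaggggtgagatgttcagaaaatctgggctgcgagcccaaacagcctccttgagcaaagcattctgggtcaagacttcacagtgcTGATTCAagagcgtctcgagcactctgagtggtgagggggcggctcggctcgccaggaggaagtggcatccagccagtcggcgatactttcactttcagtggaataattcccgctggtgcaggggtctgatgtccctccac
PLXNA2, a receptor for SEMA6A, was high in clone 11. It read 0.722, 0.615 and 1.09 TPM in the libraries of clone 7, 2.75, 2.06 and 2.13 in those of clone 8, and 1.07, 0.693 and 0.918 in those of clone 9. The dabrafenib/trametinib clones held 2.46, 0.429 and 1.06 TPM in the libraries of clone 10, 7.47 and 10.3 in those of clone 11, 1.30, 0.902 and 2.00 in those of clone 12, and 0.933, 1.84 and 1.44 in those of clone 13, against 1.78, 2.58 and 2.06 TPM in untreated cells. Both clone 11 libraries exceeded all other libraries, and clone 11 was called higher than each of the other 6 clones, by at least 1.57 on the log2 scale (largest adjusted p of the 6 pairs = 0.000524). PLXND1 was also called higher in clone 11 alone, where it averaged 172 ± 18.2 TPM (SD, n = 2), against 53.3 ± 6.45 TPM in untreated cells (SD, n = 3). PLXNA1 was called lower in clones 8 and 9, and PLXNA3 and PLXNB1 in no clone.

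Of the netrin family, NTN4 was the 1 ligand that passed the filter, out of 4, and UNC5B and DCC were the receptors that did, out of 5. UNC5B, a netrin receptor that can also trigger cell death, was near 0 in untreated cells. It read 3.36, 3.34 and 3.69 TPM in the libraries of clone 7, 8.19, 7.03 and 6.98 in those of clone 8, and 15.4, 15.8 and 13.8 in those of clone 9. Its other clone values were 7.95, 10.4 and 10.2 TPM in the libraries of clone 10, 22.2 and 31.7 in those of clone 11, 6.70, 7.30 and 11.1 in those of clone 12, and 8.88, 34.4 and 27.2 in those of clone 13, against 0.0477, 0.0531 and 0.0284 TPM in untreated cells. Clone 7 held the least among clones and clone 11 the most on average, and the 3 libraries of clone 13 spread from 8.88 to 34.4 TPM. The log2 fold change was 3.51 (SE 0.23, adjusted p = 1.45e-10). DCC, the receptor for attraction to netrins, was called in no clone and had between 0 and 2.95 TPM in clone libraries and between 1.34 and 1.84 TPM in untreated libraries.

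NTN4, a secreted netrin of basement membranes, was abundant in the 3 vemurafenib clones. It read 13.1, 12.5 and 16.4 TPM in the libraries of clone 7, 15.5, 15.6 and 9.84 in those of clone 8, and 8.51, 6.53 and 8.20 in those of clone 9. In the dabrafenib/trametinib clones it read 0, 0.112 and 0.0672 TPM in the libraries of clone 10, 0.383 and 2.18 in those of clone 11, 0.357, 0.0930 and 0.334 in those of clone 12, and 0.104, 0.244 and 0.469 in those of clone 13, against 0.00530, 0.00951 and 0.0242 TPM in untreated cells. Every vemurafenib library exceeded every dabrafenib/trametinib library, and clone 10 replicate 1 held 0. Against untreated cells the log2 fold change was 3.88 in clone 7, 3.83 in clone 8 and 3.10 in clone 9 (SE 0.23 each, adjusted p of 1.42e-09 or lower), 1.05 in clone 11 (SE 0.26, adjusted p = 0.00266) and at most 0.32 in clones 10, 12 and 13, which were not called. The value in clone 11 rests on 2 libraries that read 0.383 and 2.18 TPM. For the mean of the clones the log2 fold change was 1.79 (SE 0.18, adjusted p = 4.76e-08), and 1.81 without a call when the libraries of a clone were treated as correlated (adjusted p = 0.193). The NTN4 window on the minus strand of chr12:95791106-95791405 holds the TEAD letters, in capitals, from 26 bases after the start.
NTN4: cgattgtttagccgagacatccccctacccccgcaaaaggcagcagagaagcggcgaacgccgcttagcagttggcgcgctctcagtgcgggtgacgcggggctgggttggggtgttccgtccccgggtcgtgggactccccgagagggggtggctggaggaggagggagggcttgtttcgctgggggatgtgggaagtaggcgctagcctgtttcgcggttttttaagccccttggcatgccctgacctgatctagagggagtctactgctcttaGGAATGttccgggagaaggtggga
With a pseudocount of 5, the fold changes of the low members NTN4, SEMA3F and EPHB2 were 0.80, 0.82 and 0.67, under the minimum.

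Of the Slit and Robo genes, ROBO2 fell and none rose for the mean of the clones, out of 2 tested Slits of 3 and 3 tested Robo receptors of 4. ROBO2 read 7.43, 5.74 and 6.45 TPM in the libraries of clone 7, 3.41, 3.58 and 2.88 in those of clone 8, and 2.82, 1.89 and 2.46 in those of clone 9. The dabrafenib/trametinib clones held 0.177, 0.316 and 0.497 TPM in the libraries of clone 10, 4.05 and 3.09 in those of clone 11, 0.536, 1.02 and 0.403 in those of clone 12, and 0.266, 0.219 and 0.216 in those of clone 13, against 37.9, 47.4 and 49.7 TPM in untreated cells. Clone 7 kept the most and clones 10 and 13 the least, and the log2 fold change was -4.03 (SE 0.12, adjusted p = 1.04e-15). ROBO1, the other main Slit receptor and the neighbour of ROBO2 on chromosome 3 among protein-coding RefSeq genes, did not follow it. It read 52.3, 35.5 and 37.5 TPM in the libraries of clone 7, 87.8, 76.9 and 22.5 in those of clone 8, and 52.3, 26.3 and 51.7 in those of clone 9. Its other clone values were 70.3, 76.7 and 50.3 TPM in the libraries of clone 10, 48.2 and 66.6 in those of clone 11, 56.5, 67.9 and 50.6 in those of clone 12, and 42.7, 76.1 and 52.03 in those of clone 13, against 27.7, 39.7 and 41.4 TPM in untreated cells. The groups overlapped, clone 8 replicate 3 held the least of all libraries, and the log2 fold change of 0.54 was not called (SE 0.29, adjusted p = 0.123). The ratio of ROBO2 to ROBO1 was between 0.00252 and 0.172 in the clone libraries, with a median of 0.0426, and 1.25 ± 0.099 in untreated cells (SD, n = 3). ROBO3 was called in no clone, although its clone libraries, at 20.5 to 43.8 TPM, all exceeded the untreated ones, at 17.4 to 19.6 TPM.

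SLIT3, a secreted Robo ligand, was called in both directions. It read 25.2, 21.1 and 22.8 TPM in the libraries of clone 7, 6.43, 5.88 and 4.07 in those of clone 8, and 19.8, 20.0 and 19.1 in those of clone 9. The dabrafenib/trametinib clones held 23.2, 18.0 and 7.70 TPM in the libraries of clone 10, 27.2 and 14.2 in those of clone 11, 50.9, 42.8 and 27.3 in those of clone 12, and 39.5, 58.9 and 31.5 in those of clone 13, against 12.2, 13.7 and 14.3 TPM in untreated cells. The log2 fold change was 1.58 in clone 13 (SE 0.32, adjusted p = 0.000362), 1.48 in clone 12 (SE 0.32, adjusted p = 0.000696) and -1.17 in clone 8 (SE 0.32, adjusted p = 0.0046), and 0.55 for the mean of the clones (adjusted p = 0.059). Clone 8 was called lower than each of the other 6 clones, with a log2 difference of -1.32 to the nearest, clone 10 (largest adjusted p of the 6 pairs = 0.00283). SLIT2, another Robo ligand, read 1.53, 0.623 and 0.866 TPM in the libraries of clone 7, 1.68, 1.204 and 0.733 in those of clone 8, and 5.51, 4.30 and 5.36 in those of clone 9. Its values were 0.982, 1.55 and 2.24 TPM in the libraries of clone 10, 0.719 and 1.36 in those of clone 11, 1.24, 1.09 and 0.647 in those of clone 12, and 1.43, 1.60 and 0.837 in those of clone 13, against 0.421, 0.389 and 0.464 TPM in untreated cells. Clone 9 stood above all other libraries, at 2.08 over untreated cells on the log2 scale (SE 0.22, adjusted p = 1.46e-07), and it was called higher than each of the other clones, by at least 1.25 (largest adjusted p of the 6 pairs = 0.000393).

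Summed over subfamilies, the class 3 semaphorins had a median of 136.5 TPM over the 20 clone libraries, against 50.4 ± 4.73 TPM in untreated cells (SD, n = 3), and the class 6 semaphorins 9.18 TPM, against 46.2 ± 4.36 TPM. The B ephrins had a median of 30.9 TPM in the clones, against 13.5 ± 0.33 TPM in untreated cells, and the A ephrins 18.9 TPM, against 30.7 ± 0.57 TPM. SEMA3C and SEMA3B made up most of the class 3 sum, and EFNB1 most of the B ephrin sum in the clones. The neuropilin sum was between 71.3 and 220.2 TPM in the clones and 33.1 ± 5.72 TPM in untreated cells. The B plexin sum had a median of 249.6 TPM in the clones, against 98.6 ± 10.5 TPM in untreated cells, with PLXNB2 the 1 called member of 3. Some other sums went different ways in different clones. Clone means were 52.6 to 106.9 TPM for A plexins (untreated 96.5), 30.5 to 53.4 for class 4 semaphorins (46.8) and 6.96 to 44.8 for Slits (14.2). The Robo sum averaged 73.4 to 95.4 TPM in the clones, against 99.4 ± 12.5 TPM in untreated cells. Over all 34 receptors the sum was between 585 and 937 TPM in the clones and 434.8 ± 17.1 TPM in untreated cells, while over all 35 ligands it was between 192.8 and 361 TPM in the clones and 246.4 ± 14 TPM in untreated cells.

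**Figure D3:**
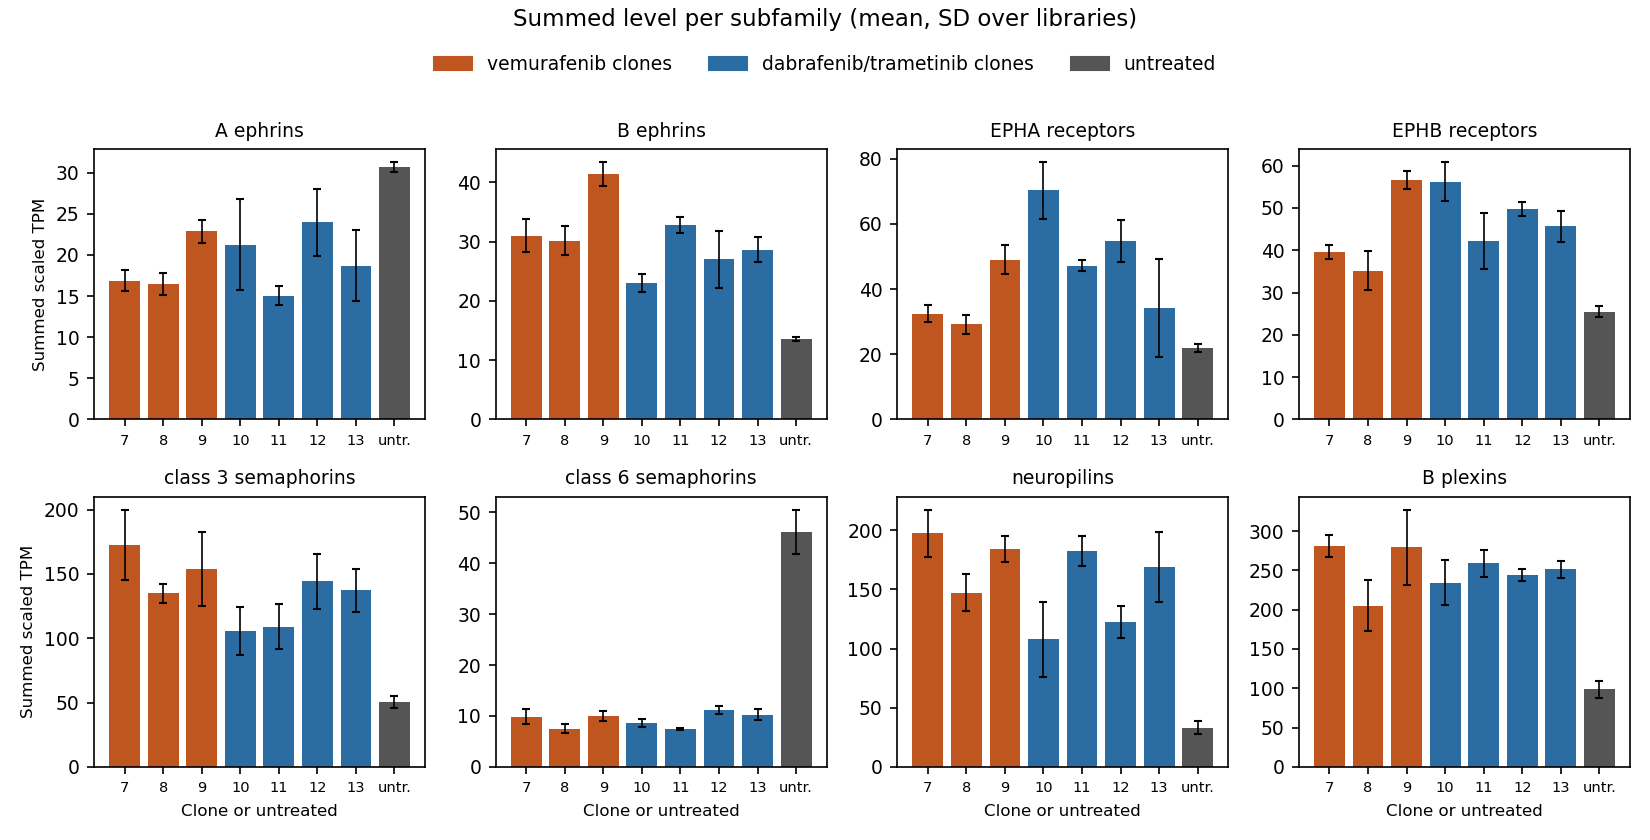
Summed scaled TPM of 8 subfamilies in each clone and in untreated cells (untr.), with bars at the mean and error bars of 1 SD over 3 libraries (2 in clone 11). The class 6 semaphorin and A ephrin bars are lower in all 7 clones than in untreated cells, and the bars of the other 6 subfamilies are higher in all 7.

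The clones differed from each other in many members. By an F test across the 7 clones, with a range of clone means of at least 1, 32 of 52 tested members (61.5%) differed, against 25.3% of all tested genes. Semaphorins made up 12 of the 32 and Eph receptors 7. With a pseudocount of 5, 17 members differed. The filter admits a member that is high in 1 clone alone, so the shares in this paragraph describe the tested members and not the whole module. A member counted as clone-specific where 1 clone was called the same way against each of the other 6. This was met by 6 of 52 tested members and by 2.93% of all tested genes. These were EPHB2, low in clone 7, SLIT3, low in clone 8, SLIT2, high in clone 9, NRP1, low in clone 10, SEMA3F, high in clone 10, and PLXNA2, high in clone 11. Clones 12 and 13 had no clone-specific member. SEMA3F in clone 10 exceeded the nearest clone, clone 9, by 1.22 on the log2 scale (largest adjusted p of the 6 pairs = 0.000691), and EPHB2 in clone 7 had a log2 difference of -1.26 to the nearest, clone 8 (largest adjusted p = 0.00132). The largest ranges between clone means were 3.81 for NTN4, 3.50 for PLXNC1, 3.41 for SEMA3F, 2.99 for EPHA5, 2.75 for SLIT3 and 2.63 for UNC5B, all on the log2 scale.

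**Figure D4:**
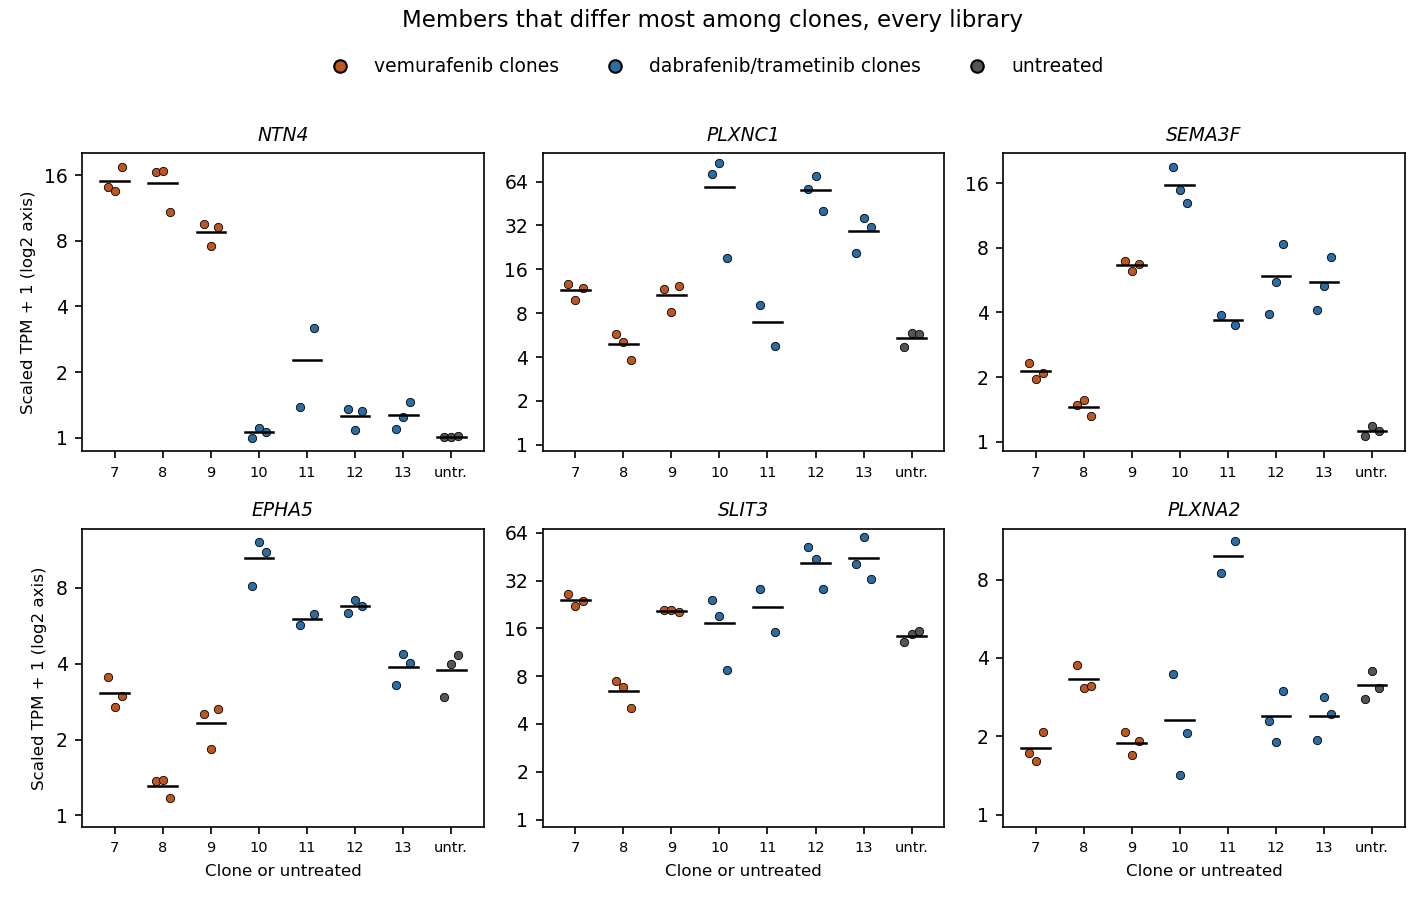
Scaled TPM + 1 (log2 axis) of 6 members that differed among clones, with 1 point per library, a line at the group mean and untreated cells (untr.) at the right. NTN4 is high in clones 7 to 9, PLXNC1 in clones 10, 12 and 13, SEMA3F and EPHA5 in clone 10, SLIT3 in clones 12 and 13 and low in clone 8, and PLXNA2 in clone 11.

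To ask whether the selecting drug went with these differences, the 3 vemurafenib clone means were set against the 4 dabrafenib/trametinib clone means, with the clone as the unit. NTN4 was the 1 member called, where 0.0192% of all tested genes were, that is 3 genes. Its log2 difference was 3.17 (adjusted p = 0.037), it was higher in 3 of 3 vemurafenib clones than in any dabrafenib/trametinib clone, and the exact two-sided permutation p over the 35 splits of the clones was 0.0286, the smallest that this design allows. NTN4 reached 1 TPM in the vemurafenib libraries and, outside them, in clone 11 replicate 3 alone. The filter thus admitted it mainly through the group where it was high. The call was close to the threshold. It was lost without clone 8 replicate 3 (adjusted p = 0.0693), clone 9 replicate 1 (0.0505), clone 11 replicate 2 (0.111) or clone 12 replicate 3 (0.0525), with the values as deposited (0.081), with a pseudocount of 0.1 (0.0889) and without the filter on low values (0.161), while the log2 difference stayed between 3.02 and 3.31 in every fit that left out 1 library. Unadjusted, 8 of 52 members (15.4%) had a p under 0.05, against 14.5% of all tested genes, a share near the background. The clone means of the 2 arms did not overlap for 7 members (13.5%), against 14.4% of all tested genes, again near the background. Beside NTN4, SEMA3C was higher in the vemurafenib clones, with a log2 difference of 0.84 (adjusted p = 0.275), and 5 members were lower in them: EPHA5 (-1.60, adjusted p = 0.208), PLXNA1 (-0.85, adjusted p = 0.22), SEMA6D (-0.49, adjusted p = 0.324), ROBO1 (-0.37, adjusted p = 0.284) and SEMA3E (-0.31, adjusted p = 0.391). The exact two-sided permutation p was 0.0286 for SEMA6D and ROBO1 and 0.0571 for SEMA3C, EPHA5, PLXNA1 and SEMA3E. Each was listed because its arm means did not overlap. A permutation p near the smallest possible follows from that choice and adds no support. With libraries as the unit and a correlation within clones, 3 of 52 members were called, against 1.46% of all tested genes. They were NTN4 at 3.19 (adjusted p = 1.79e-07), EPHA5 at -1.61 (adjusted p = 0.00259) and ROBO2 at 1.40 (adjusted p = 0.0133). This fit used 1 correlation, 0.381, for all genes, so its p-values can be too small for members that differ strongly between clones. Drug is a property of the clone, and with the clone as the unit the adjusted p was 0.037, 0.208 and 0.285. For ROBO2 the clone means of the arms overlapped, since clone 11 resembled clones 8 and 9. The scaling factors were between 0.747 and 1.05 in vemurafenib libraries and between 0.997 and 1.15 in dabrafenib/trametinib libraries, and their part in the arm differences was not tested apart from the values as deposited.

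Co-receptors, cytoplasmic effectors and related cues of the pathway were taken as a list of 98 genes. They were chosen by role, with earlier results of these data known. Of the 98, 97 were in the table and 82 were tested. Of these, 18 (22%) were called higher and 12 (14.6%) lower for the averaged clones, beside 10.9% and 7.92% of all tested genes. The median log2 fold change was 0.32. CXCL12, a chemokine that guides migrating cells, rose by 6.62 (SE 0.20, adjusted p = 6.99e-16) to clone means between 3.15 and 557 TPM, against 0.51 ± 0.25 TPM in untreated cells (SD, n = 3). MMP2, a secreted metalloprotease, rose by 5.93 (SE 0.18, adjusted p = 7.93e-16), and RRAS, a small GTPase that plexins inactivate, rose by 4.73 (SE 0.11, adjusted p = 1.03e-17). CHL1, an adhesion molecule that partners neuropilins, fell by 5.40 (SE 0.11, adjusted p = 3.62e-18).

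The members that did not pass the filter were EFNA2, EPHA6, EPHA7, EPHA8, EPHA10, NTN1, NTN3, NTN5, PLXNA4, ROBO4, SEMA3G, SEMA4A, SEMA5B, SLIT1, UNC5A, UNC5C and UNC5D, 17 in all. SLIT1 and NTN5 reached their highest values, 3.38 and 1.86 TPM, in clone 10 replicate 1, the library with the fewest genes above 0. ROBO4, the Robo receptor of endothelium, had between 0 and 1.34 TPM in clone libraries and between 0.0104 and 0.0142 TPM in untreated libraries. UNC5C had at most 0.393 TPM in clone libraries and between 0.469 and 0.505 TPM in untreated libraries. The remaining 13 stayed under 1 TPM in every library. Some members are direct neighbours among protein-coding RefSeq genes. On chromosome 1, EFNA1 was called lower, while EFNA3 and EFNA4 beside it were called in no clone, with log2 fold changes of -0.09 and 0.53. On chromosome 7, SEMA3D and SEMA3A both had all 20 clone libraries above the untreated ones, with log2 fold changes of 1.15 and 0.98 that fell on either side of the fold minimum, and SEMA3E beside SEMA3A had -0.87 and was called lower in 3 clones. On chromosome 11, ROBO3 and the untested ROBO4 had higher means in every clone than in untreated cells.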

How the data were processed

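Libraries of poly(A) RNA were sequenced from both ends, and sample order was randomized before extraction, per the labels' protocols. The authors deposited 1 series table with 1 value per gene for each of 23 libraries, matched to samples by the column names in the labels; 0 columns of per-sample values were left unused. The deposited values were read as TPM because every column sums to the same total, although the table is called counts. Kallisto and hg19 are named, without a version, per the submitters' processing notes, and the transcript annotation is not given in the sources used here. As named, the library kit does not mark strand, so reads of a gene and its antisense partner cannot be told apart.

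TPM were scaled by a trimmed mean of log ratios (30% of ratios and 5% of levels trimmed, 10822 genes with at least 1 TPM in all libraries). After this the median log2 fold change over all genes was -0.01 for the clones against untreated cells, where it was 0.14 as deposited, and the median shift per gene was 0.16. The log2(scaled TPM + 1) values entered 1 limma fit of 8 groups (limma 3.58.1, R 4.3.3, eBayes with a trend), with contrasts for each clone, the unweighted mean of clones, the pairs of clones and an F test of 6 degrees of freedom. Arms were compared on clone means, and an exact permutation test was run beside it. The steps were tested on simulated data. What separated the biological replicates is not said in the labels, so p-values measure the spread between these libraries, which may be technical. Replicate numbers were not used to pair samples across groups in the main fit. Same-numbered libraries deviated from their group means with a median correlation of 0.0138, which does not exclude pairing of some groups.

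Values of every library are given for the 10 called members with the largest changes, the 6 with the largest range among clones, clone-specific members and members called between arms, all at 5 TPM or more in a group, and for the 3 most abundant members called in no clone. The 4 called partner genes with the largest changes are named. Members, partner list, marker lists, motifs and rule were chosen with earlier results of these data known. Alternatives were another or no scaling, other pseudocounts, filters and fold minimum, no trend, a replicate block, correlated libraries within clones and leaving out each library, and, added after seeing the data, leaving out clone 8 replicate 3 and clone 10 replicate 1 together.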

Additional observations from a re-analysis of the deposited data

Results flagged for a closer look

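Far values were looked for among the clone means of the named members, over all 7 clones and over the 4 dabrafenib/trametinib clones, by the gap of the highest or lowest clone to its nearest neighbour as a share of the whole range (Dixon's 95% critical values). Of 40 groups, 4 were flagged. The 5% that chance would flag is no yardstick for this count. Some named members were chosen for a large range among clones or for 1 clone apart from the others. The 4 dabrafenib/trametinib clones are also part of the 7. PLXNA2 in clone 11 stood above the other clones, with a gap of 0.641 of the range over 7 clones and 0.939 over the dabrafenib/trametinib clones. SLIT2 in clone 9 stood above the other 6 clones, with a gap of 0.773 of the range. SEMA6D in clone 10 stood above the other 3 dabrafenib/trametinib clones, with a gap of 0.907 of the range. The clone 10 libraries read 4.88, 3.55 and 2.00 TPM, the highest in replicate 1, the library with the fewest genes above 0. The lowest of them lay below a clone 13 library at 2.65 TPM. NTN4 differed between vemurafenib and dabrafenib/trametinib clones, by 3.17 on the log2 scale in the test of the difference between arms.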

How the results depend on the processing

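Over the fits that left out 1 library, members called higher for the mean of the clones numbered 13 to 15 and lower 7 to 8, members called per clone 21 to 24 in clone 7, 25 to 26 in clone 8, 27 to 28 in clone 9, 19 to 21 in clone 10, 21 to 23 in clone 11, 21 to 25 in clone 12 and 22 to 24 in clone 13, members differing among clones 31 to 35, partner genes called higher 18 to 19 and lower 11 to 13, and members called between arms 0 to 1. The arm count was 0 with the values as deposited, with a pseudocount of 0.1, without the filter and without clone 8 replicate 3 and clone 10 replicate 1 together, and 3 with correlated libraries within clones. With a pseudocount of 5, 8 members were called higher for the mean of the clones, 14 were called in each of clones 8, 11 and 12, 17 differed among clones and 6 partner genes were lower, since a larger pseudocount shrinks the folds of low genes. Without a fold minimum, 26 members were higher and 13 lower for the mean of the clones, 35 were called in clone 7, 34 in each of clones 10 and 11, 39 in clone 12 and 36 in clone 13, and 41 partner genes were higher and 24 lower. The mean fold change of EPHA5, 0.08 and never called, was -0.0714 with a pseudocount of 0.1, and over the fits that left out 1 library it lay between -0.0804 (without untreated replicate 1) and 0.198; the cause was not tested. With the replicate number as a block, 14 members were higher and 7 lower for the mean of the clones and 34 differed among clones, and no named member changed its call. Same-numbered libraries deviated from their group means with a correlation between -0.622 and 0.418 over 77 pairs (median 0.0138), 28 of them over 0.1. The depth of the libraries is unknown, so how far it limits low members such as NTN4 in the dabrafenib/trametinib clones could not be computed.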
